A study of Mus musculus with 5 samples.

Results

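The comparison described here follows granulosa cells of wild-type mice from 8 h to 24 h after the ovulatory hormone, the interval in which the ovulating follicle becomes a corpus luteum. It rests on 2 of the 5 arrays in the series: wild type hCG 8 h and wild type hCG 24 h, with 1 array for each. Follicle growth had been stimulated in both groups with equine chorionic gonadotropin (eCG) over 48 h, and the ovulatory signal was given as human chorionic gonadotropin (hCG), a ligand of the luteinizing hormone receptor. The 8 h mice were 23 days old and the 24 h mice 24 days old. The other 3 arrays come from mice with floxed alleles of both CEBPα/β genes (fl/fl fl/fl) and Cyp19-cre, a Cre recombinase driven from a promoter active in granulosa cells, which deletes the transcription factors C/EBPα and C/EBPβ there. Of these, the 8 h and 24 h knockout arrays are used to set their values beside those of wild type. An alternative analysis picked probe sets by their mean over all 5 arrays, which is the only use of the 4 h knockout array. The labels do not say how many mice gave each RNA sample, whether the wild-type mice carried floxed alleles, or at what time of day cells were taken.

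All 18194 genes with a probe set of their own were described, and 13522 of them were above the floor, an intensity of 19, on at least 1 of the 2 arrays. Values are array intensities on a linear scale, each gene represented by its brightest probe set, and differences are log2 of 24 h minus log2 of 8 h. With 1 array in each group there is no replicate error and no test. A gene is said to have risen or fallen only where its intensity differed by at least 2-fold and its higher value reached the floor. Folds of genes that dropped below the floor at either time use the floor as the lower value, and are written as "at least"; such a fold can be under 2, since the rule itself uses the values as deposited.

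Granulosa cells surround the oocyte and make estradiol before the gonadotropin surge. The surge raises cyclic AMP, which induces EGF-like factors, and these act on the EGF receptor and the ERK kinases to switch on genes for prostaglandins, for the hyaluronan matrix of the cumulus and for proteases that open the follicle wall. Cells that remain after ovulation stop dividing, store lipid, take in cholesterol and make progesterone as luteal cells, while blood vessels grow into the tissue. C/EBPβ is known as a factor needed for this conversion in the mouse ovary.

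Of the 13522 genes above the floor, 1581 (11.7%) passed the 2-fold rule. They comprised 733 genes (5.42%) that rose and 848 (6.27%) that fell. The median difference over all genes was 0.00 and their robust SD 0.48 on the log2 scale, and the correlation of the log2 intensities of both arrays was 0.94 across genes, which are not independent replicates. The plot of 24 h against 8 h intensities shows that the far changes lay on the lower side. At 8-fold or more, 31 genes rose and 50 fell, and at 32-fold or more, 2 rose and 6 fell.

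**Figure D1:**
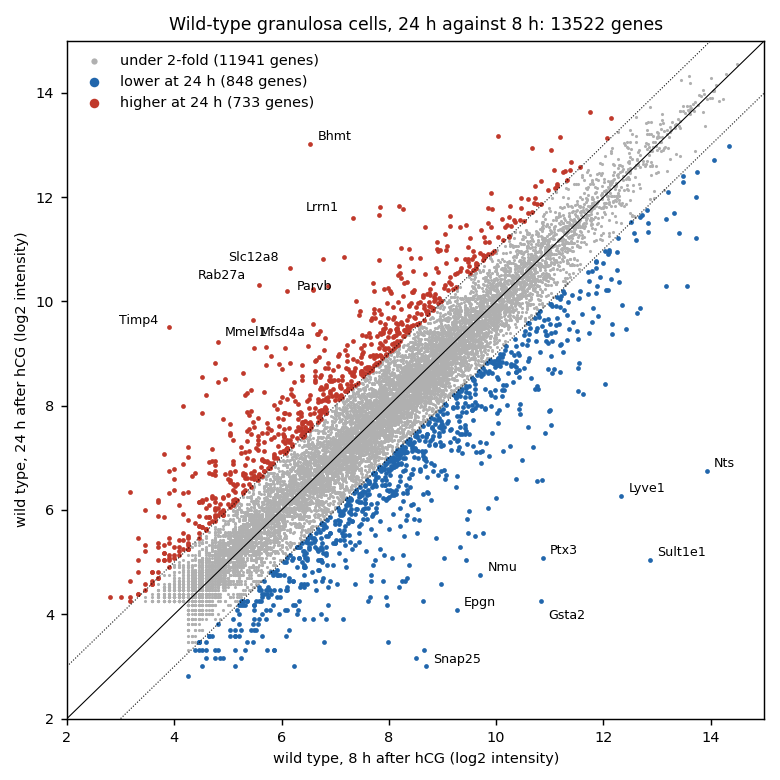
Log2 intensity of 13522 genes in wild-type granulosa cells at 8 h (x axis) and 24 h (y axis) after hCG, 1 array each; each point is a gene, the solid line marks equal values and the dotted lines a 2-fold difference. The 733 red genes rose and the 848 blue genes fell, and Sult1e1, Nts and Gsta2 lie farthest below the line while Bhmt lies farthest above it.

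Genes read by several probe sets gave a measure of technical spread within the comparison. Among 6213 genes with at least 2 probe sets above the floor, the SD of the difference between probe sets of a gene was 0.35. Of 1187 further probe sets above the floor that belong to 719 changed genes, 94.7% differed in the same direction and 56.3% also passed the 2-fold rule. Only 2 genes had probe sets that passed it in opposite directions. Nudt6 read 43 and 98 at 8 h and 24 h with one probe set and 90 and 36 with the other, and Apoh 74 and 18 against 13 and 26. Those 2 genes are given no direction in the text, but the counts of genes that rose and fell hold them by their brightest probe set.

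Both arrays carried the markers of the labelled cell type. All 10 granulosa-defining genes that were found lay above the floor on both arrays, among them Inha, the inhibin alpha subunit, at 16632 and 15340, and Cyp11a1, the side-chain cleavage enzyme that starts steroid synthesis, at 11097 and 19408. Their summed intensity was 38086 at 8 h and 52767 at 24 h. Markers of other ovarian cells were also present, and they moved between the arrays. Of 18 stroma and smooth muscle markers, 9 fell and 0 rose, with a median difference of -0.95 and a summed intensity of 30368 at 8 h and 19753 at 24 h. Among 9 theca markers 5 fell, the median was -2.01, and the sum went from 26959 to 24415, most of it in Star and Cyp11a1, which granulosa cells also express. Cyp17a1, the theca enzyme of androgen synthesis, read 939 at 8 h and 131 at 24 h, 7.17-fold lower. Hhip, a hedgehog-binding protein on the same list, went from 404 to 10, at least 21.3-fold lower.

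Endothelial and other markers shifted as well. Of 19 endothelium markers 6 fell and 0 rose, with a median of -0.88 and sums of 3383 and 2008. Vascular endothelial cadherin (Cdh5) went from 208 to 88, and Fli1, an ETS factor of endothelium, from 69 to 23. Leukocyte markers went the other way: 3 of 17 rose and 0 fell, 17.6% against 11.7% of all genes that changed. Their median was 0.62 and their sums were 1907 and 2683. Ptprc, the pan-leukocyte antigen CD45, read 24 at 8 h and 74 at 24 h. Surface epithelium markers gave 5 genes that rose of 12 and 0 that fell, with a median of 0.62 and sums of 1876 and 2806. Upk3b, an uroplakin of mesothelium, read 259 and 703. The 16 oocyte markers had a median of -0.39 with 15 of 16 below 0, and the 5 erythroid markers one of -0.26, with none of either list past 2-fold. No defining marker was listed at an intensity of 0, and only Vwf among the endothelium markers stayed under the floor. In bulk RNA, fewer cells of a type and less RNA per cell cannot be told apart, and the part of these cells in the results that follow was not tested. Calls for Cdh5, Fli1, Erg, Myh11, Acta2, Ptprc and Epcam did not hold when a gene's probe sets were averaged. Of these, Cdh5, Fli1, Myh11, Acta2 and Ptprc had no other probe set above the floor.

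**Figure D2:**
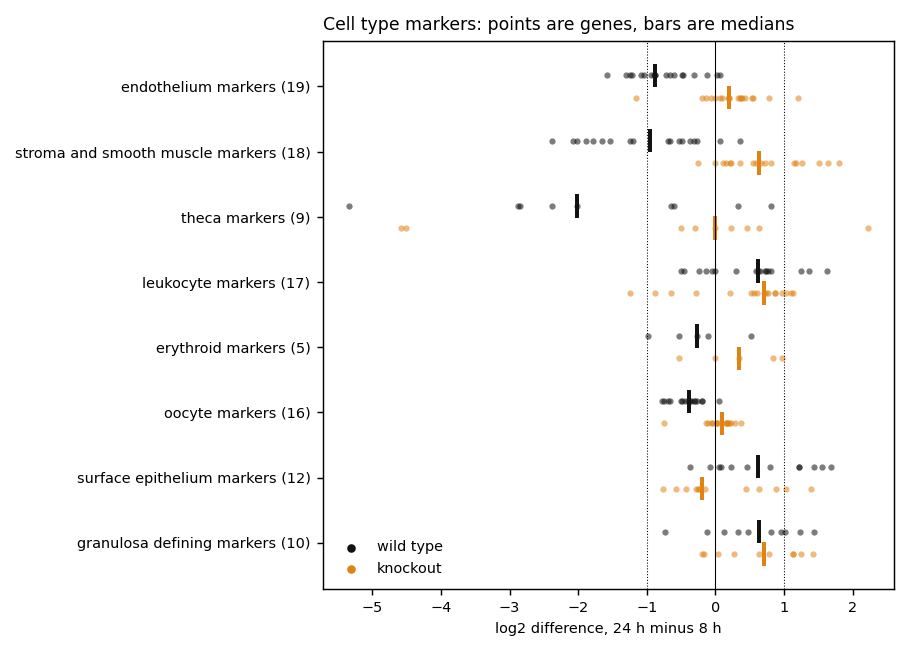
Log2 difference between 24 h and 8 h after hCG (x axis) of the marker genes of 8 cell types; points are genes above the floor in wild type (numbers in brackets), bars are medians, black is wild type and orange the knockout, and dotted lines mark a 2-fold difference. The wild-type medians of theca, stroma and smooth muscle, and endothelium markers are -2.01, -0.95 and -0.88, and those of the knockout 0.00, 0.63 and 0.20.

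Bhmt, betaine-homocysteine methyltransferase, which passes a methyl group from betaine to homocysteine and is known chiefly from liver, headed the genes that rose. It read 93 at 8 h and 8343 at 24 h, and only 95 genes were brighter on the later array. Timp4, an inhibitor of metalloproteinases, went from 15 to 726, at least 38.2-fold. Rab27a, a small GTPase of secretory vesicle docking, went from 48 to 1281, and Slc12a8, a transporter of the cation-chloride cotransporter family, from 71 to 1600. Mmel1, a membrane metalloendopeptidase, read 28 and 601. Further down came Lrrn1, a leucine-rich repeat membrane protein, at 161 and 3111, and Mfsd4a, a transporter of the major facilitator superfamily, at 44 and 805.

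The next genes in that order included proteins of lipid droplets, matrix and hormone response. Parvb, an actin-binding partner of integrin-linked kinase, read 69 and 1169, 16.9-fold higher. Plin5, which coats lipid droplets and tethers them to mitochondria, read 109 and 1811. Cemip, a protein of hyaluronan breakdown, went from 227 to 3571, 15.7-fold. Oxtr, the oxytocin receptor, went from 225 to 3213, 14.3-fold. Mgst2, a microsomal glutathione transferase, read 143 and 1856. Gsg1l, Mpzl2 and D630023F18Rik complete the 15 largest rises, at 23 and 375, 18 and 255, and 27 and 452.

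**Figure D3:**
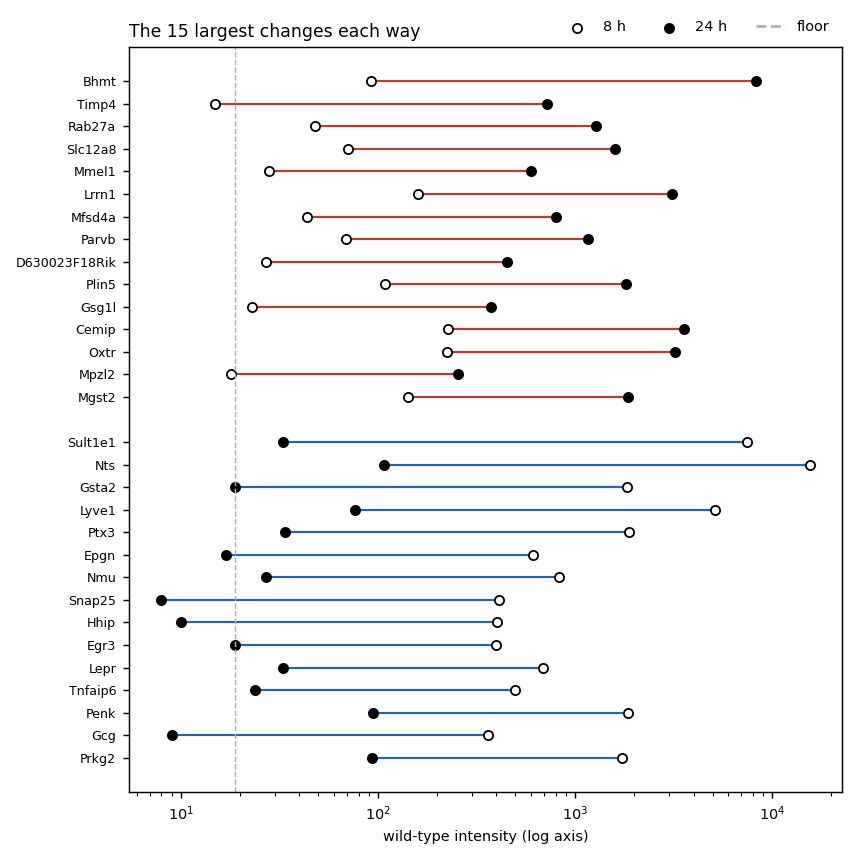
The 15 genes with the largest rise and the 15 with the largest fall between 8 h and 24 h after hCG in wild-type granulosa cells; open points give the intensity at 8 h and filled points that at 24 h on a log axis, and the dashed line is the floor. Bhmt goes from 93 to 8343, and Nts from 15588 to 108.

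The 300 bases around the Bhmt start in RefSeq (250 before to 50 after it) hold CAAGGTCA, the letters bound by SF-1 and LRH-1, which are nuclear receptors of steroid-producing cells encoded by Nr5a1 and Nr5a2. The match begins 74 bases before the start. These letters, on either strand, occurred in 2.31% of 735 such windows of genes that rose (17 windows), in 0.814% of 860 windows of genes that fell, and in 1.15% of 13888 windows of genes above the floor. A match is a description of letters and not a binding site, and Bhmt was chosen for display after its values were seen. The 150 bases before the start are printed with the match in capitals, from GRCm38.p6, chr13:93637759-93637908, minus strand.
Bhmt: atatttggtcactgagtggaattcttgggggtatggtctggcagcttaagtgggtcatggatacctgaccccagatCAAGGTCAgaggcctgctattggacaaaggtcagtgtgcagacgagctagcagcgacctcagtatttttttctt

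At the other end stood genes of the ovulatory response. Sult1e1, which sulfates and so inactivates estrogens, read 7457 at 8 h and 33 at 24 h, and Nts, the precursor of the peptide neurotensin, read 15588 and 108. Only 14 genes were brighter than Nts at 8 h. Lyve1, a hyaluronan receptor, went from 5158 to 77. Ptx3, a pentraxin that crosslinks the cumulus matrix, went from 1873 to 34. Gsta2, a glutathione transferase of the alpha class, read 1839 and 19. The alpha-class transferases are close in sequence, so their probe sets may share signal.

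Several of the remaining large falls were in secreted or signalling proteins. Epgn, an EGF-like ligand, read 614 at 8 h and 17 at 24 h, at least 32.3-fold lower. Nmu, the precursor of the peptide neuromedin U, read 835 and 27, and Penk, the enkephalin precursor, 1863 and 95. Lepr, the leptin receptor, went from 693 to 33. Gcg, the glucagon precursor, went from 364 to 9, at least 19.2-fold lower. Prkg2, a cyclic GMP-dependent kinase, read 1733 and 94. Egr3, Snap25, Hhip and Tnfaip6 complete the 15 largest falls, Egr3 by only 1 of its 2 probe sets above the floor.

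The list of 29 ovulatory response genes above the floor gave 22 that fell and 0 that rose, against 6.27% of all genes that fell. The list was chosen with earlier results of these data known and holds Sult1e1, so the share of all genes is given for scale only. Its median difference was -2.14, and 27 of the 29 lay below 0. Ptgs2, the inducible prostaglandin synthase, read 865 at 8 h and 47 at 24 h, 18.4-fold lower. Il6, a cytokine made by cumulus cells, read 145 and 33, and Zfp36, which promotes decay of cytokine mRNAs, 761 and 149. Efnb2, an ephrin ligand, went from 1928 to 178, 10.8-fold lower. Pgr, the progesterone receptor needed for follicle rupture, was dim at both times, at 50 and 12, at least 2.63-fold lower. Rgs2, which damps G protein signals, remained bright at 9234 and 3050. Adamts1, a protease of the versican matrix, read 5871 and 2930, close to the 2-fold limit. Cited2, Ptger2, Adamts4, Hif1a and Ctsl were lower by less than 2-fold, and Nrip1 and Edn2, the endothelin of follicle contraction, were higher by less than 2-fold, Edn2 at 105 and 208. The calls for Pgr and Ptger4 ended when probe sets were averaged, and that for Adamts1 ended when the arrays were centred on their medians.

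**Figure D4:**
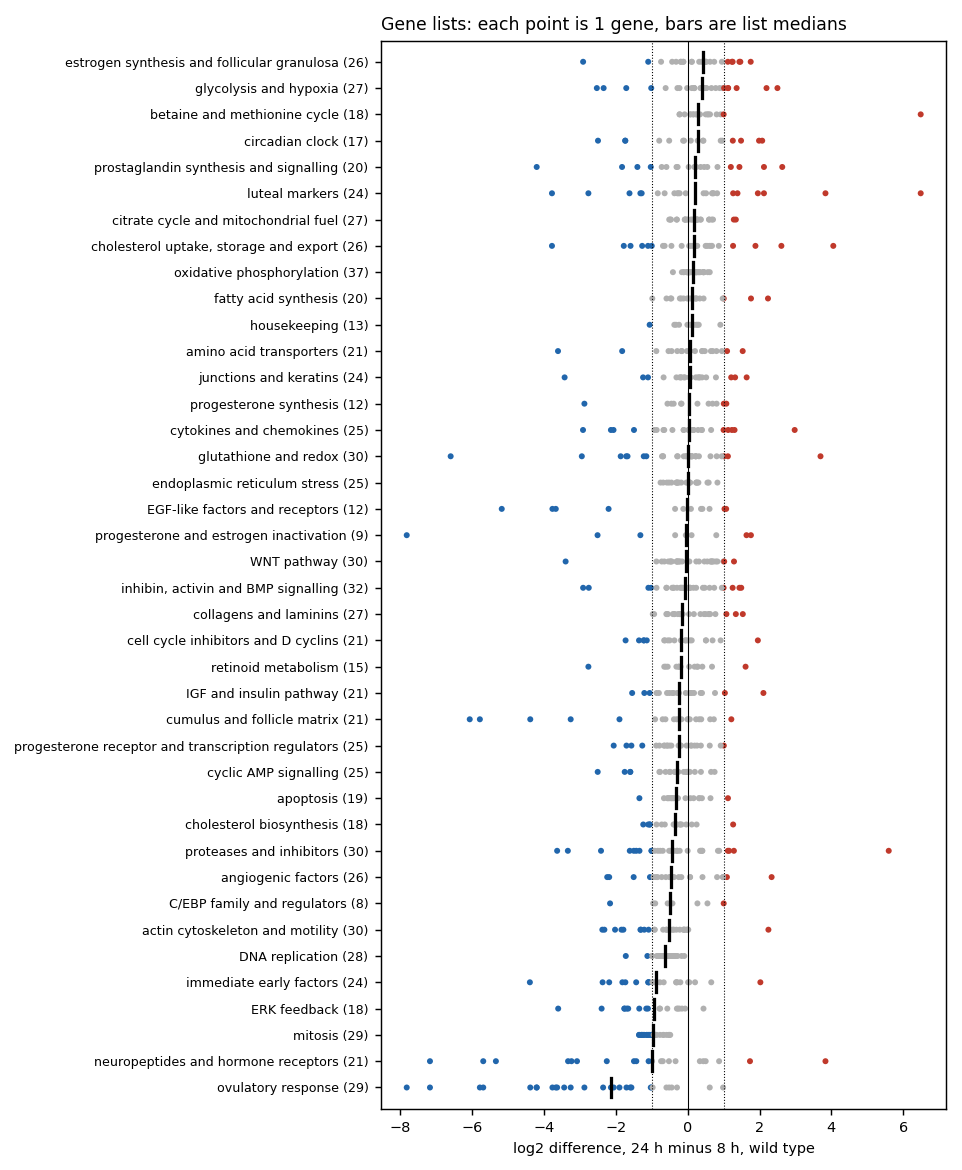
Log2 difference between 24 h and 8 h after hCG in wild-type granulosa cells (x axis) for the genes above the floor of 40 lists, ordered by list median (black bars), with the number of genes in brackets; red genes rose, blue genes fell, grey genes did not pass 2-fold. The ovulatory response list has the lowest median, -2.14, and all mitosis genes lie between -1.35 and -0.49.

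The ligands and receptors upstream of that response were split. Ereg, epiregulin, read 1019 at 8 h and 75 at 24 h, 13.6-fold lower, and Btc, betacellulin, 293 and 23, 12.7-fold lower. Their receptor Egfr went from 1182 to 257. Tgfa, another ligand of the receptor, rose from 216 to 454, and Erbb3, a receptor of the same family, from 55 to 112. Of 12 genes of EGF-like factors and receptors, 4 fell and 2 rose. Averaging probe sets ended the calls for Egfr, Tgfa and Erbb3.

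Feedback inhibitors of the ERK kinases, which are themselves induced by ERK, were lower with the ligands. Of 18 such genes 9 fell and 0 rose, with a median of -0.94 and 17 of 18 below 0. Errfi1, which binds and blocks EGF receptors, read 4158 at 8 h and 342 at 24 h, 12.2-fold lower. Dusp6, an ERK phosphatase, went from 831 to 158, 5.26-fold lower, and Dusp5, its nuclear relative, from 248 to 73. The stress-inducible Dusp1 was the single member above 0, at 1459 and 1981.

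Immediate early transcription factors, which respond to kinase signals within minutes, were also mostly lower: 9 of 24 fell, 1 rose, and the median was -0.88. Egr3 went from 399 to 19, Klf4 from 418 to 81 and Klf2 from 700 to 154. The other probe set of Egr3 above the floor was not lower, and the mean difference of its 2 probe sets was -2.09. Fos, a subunit of AP-1, read 1011 and 287, 3.52-fold lower, and its relative Fosl1 143 and 43. Egr1, a factor that activates Ptgs2 transcription, read 2360 and 1100. Myc went against the rest of the list, from 325 at 8 h to 1322 at 24 h, 4.07-fold higher.

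Fewer genes of cyclic AMP signalling changed than of the immediate early list. Of 25, 4 fell and 0 rose, 16% against 11.7% of all genes, and the median was -0.31. Pde4d, a phosphodiesterase that breaks down cyclic AMP and is induced by it, read 295 at 8 h and 52 at 24 h, 5.67-fold lower. Crem, whose inducible isoform represses cyclic AMP response genes, read 256 and 76, 3.37-fold lower, and Pde4b, another inducible phosphodiesterase, 124 and 41. The kinase subunits stayed near their 8 h values, such as Prkaca at 1209 and 1190. The calls for Crem and Pde4b did not hold with averaged probe sets.

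Promoter windows of some of these genes hold the letters of response elements, which are shown for orientation and were picked after the values were seen. The palindrome TGACGTCA, the cyclic AMP response element, occurred in 2.67% of 860 windows of genes that fell, in 1.36% of those of genes that rose and in 2.83% of windows of genes above the floor, so the genes that fell held it about as often as all genes. It stands 51 bases before a start of Errfi1, 68 before that of Scg2, secretogranin II, and 72 before that of Chgb, chromogranin B. The C/EBP palindrome TTGCGCAA stands 69 bases before the start of Ptgs2, and occurred in 0.349% of windows of genes that fell and 0.281% of those of genes above the floor. The 150 bases before each start are printed with the match in capitals, from GRCm38.p6: Ptgs2 at chr1:150099881-150100030, plus strand, Errfi1 at chr4:150854920-150855069, plus strand, Scg2 at chr1:79440027-79440176, minus strand, and Chgb at chr2:132781492-132781641, plus strand.
Ptgs2: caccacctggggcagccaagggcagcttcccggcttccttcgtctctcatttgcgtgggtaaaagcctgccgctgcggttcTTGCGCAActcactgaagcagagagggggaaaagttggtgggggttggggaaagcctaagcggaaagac
Errfi1: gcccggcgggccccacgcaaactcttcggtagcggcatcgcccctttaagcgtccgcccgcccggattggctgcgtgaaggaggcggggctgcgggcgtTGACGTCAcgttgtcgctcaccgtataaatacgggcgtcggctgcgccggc
Scg2: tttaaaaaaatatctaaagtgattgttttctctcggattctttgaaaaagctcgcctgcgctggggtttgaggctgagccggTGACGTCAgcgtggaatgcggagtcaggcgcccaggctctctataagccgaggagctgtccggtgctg
Chgb: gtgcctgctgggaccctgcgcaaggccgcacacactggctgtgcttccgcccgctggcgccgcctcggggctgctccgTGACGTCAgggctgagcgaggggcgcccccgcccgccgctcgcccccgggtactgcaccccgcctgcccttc

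The 2 granin genes printed there are read with the neuropeptides. Scg2, at 141 and 15, was at least 7.42-fold lower and Chgb, at 315 and 25, was 12.6-fold lower. Of 21 genes for neuropeptides and hormone receptors above the floor, 10 fell and 2 rose, with a median of -0.99. Npy, neuropeptide Y, went from 201 to 20, and Adcyap1, the peptide PACAP induced by the surge, from 119 to 25. Ramp1, a partner of the calcitonin receptor-like receptor, went from 2021 to 239, 8.46-fold lower, and the receptor itself, Calcrl, from 107 to 38. Oxtr rose as given above, and so did Nppc, the natriuretic peptide that keeps the oocyte in meiotic arrest, from 79 to 263, 3.33-fold. Oxt, oxytocin, the ligand of Oxtr, read 113 and 160. The median of this list moved with the floor, to -0.52 with a lower one, and the calls for Calcrl and Npr3 did not hold with averaged probe sets.

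Prostaglandin genes changed in both directions, enzymes and receptors alike. Beside Ptgs2, the releasing phospholipase Pla2g4a fell from 1353 to 513 and the uptake carrier Slco2a1 from 592 to 167. Ptgfr, the receptor for prostaglandin F2α, which ends luteal life, went the other way, from 211 to 920, 4.36-fold higher. Prxl2b, a prostaglandin F synthase, rose from 331 to 2053, Ptgds, a prostaglandin D synthase, from 140 to 380, and Ptges, a prostaglandin E synthase, from 130 to 299. In all, 4 of 20 rose and 4 fell. The E receptors Ptger2 and Ptger4 were both lower, Ptger2 at 119 and 79 and Ptger4 at 108 and 53.

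The hyaluronan matrix of the cumulus was lower at its core components. Has2, the hyaluronan synthase, read 41 at 8 h and 11 at 24 h, at least 2.16-fold lower. Vcan, versican, the large proteoglycan that binds hyaluronan, read 12030 and 1259, 9.56-fold lower, and Tnfaip6, which links hyaluronan to protein chains, 500 and 24. With Ptx3 and Lyve1 these were the 5 genes of 21 that fell, and Efemp1, a fibulin, was the 1 that rose, from 282 to 655. Has1 and Itih2 stayed near their 8 h values, at 34 and 40 and at 71 and 72.

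Of 27 listed collagens and laminins 3 rose and 0 fell, a share near the 11.7% of all genes that changed, with a median of -0.16. Over all 33 genes with a collagen symbol 2 rose and 2 fell, the latter Col24a1 and Col11a1. Col4a5, a chain of type IV collagen, went from 331 to 959, 2.90-fold higher, and Col15a1 from 107 to 271. Hspg2, perlecan, the heparan sulfate proteoglycan of basement membranes, read 424 and 896, a call that averaging probe sets ended. Col3a1 and Col1a2, the interstitial collagens, were below 2-fold, at 8032 and 6211 and at 5019 and 4150.

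Among proteases and their inhibitors 9 of 30 fell and 4 rose. The metalloproteases Adam8 and Adamts9 were 12.4-fold and 5.32-fold lower, at 707 and 57 and at 2097 and 394. Plat, the tissue plasminogen activator, read 951 and 473, and Serpinb2, an inhibitor of plasminogen activators, 111 and 11. Among inhibitors of metalloproteinases, Timp4 and Timp3, the latter at 440 and 955, rose, Timp2 fell from 2312 to 757 and Timp1, at 5160 and 2898, was below 2-fold. Ctsd, a lysosomal protease, rose from 1314 to 2925. Averaging probe sets ended the calls for Timp2, Plat and Mmp19.

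Cell division genes moved as a block. All 29 mitosis genes above the floor were lower at 24 h, between -1.35 and -0.49, with a median of -0.95, and 13 of them fell by 2-fold or more. Cdk1, the kinase that starts mitosis, read 1246 at 8 h and 520 at 24 h, 2.40-fold lower. Ube2c, which marks mitotic cyclins for destruction, went from 2596 to 1017, 2.55-fold lower, and Plk1, a kinase of the spindle, from 314 to 128. Top2a, the topoisomerase that untangles chromosomes, read 1113 and 506 and Kif11, a spindle motor, 287 and 118. Ndc80 and Kif20a, near the limit at 2.02-fold and 2.01-fold, lost their calls with median and quantile scaling. Tpx2, Kif11, Aurka, Ttk and Top2a lost theirs with averaged probe sets, at mean differences of -0.60, -0.76, -0.43, -0.69 and -0.42. Aurka and Ttk had no other probe set above the floor. Of the 3 others of Tpx2 above it, 2 were lower and 0 passed 2-fold.

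Replication genes showed the same direction at a smaller size. All 28 were lower, with a median of -0.63, and 2 passed 2-fold: Rrm2, a subunit of ribonucleotide reductase, at 1537 and 466, and Cdc45, a part of the replicative helicase, at 137 and 63, whose call ended with averaged probe sets. Pcna, the sliding clamp of DNA polymerase, read 4404 and 3016. Of 21 cell cycle inhibitors and D cyclins, 5 fell and 1 rose. Cdkn1b, the inhibitor p27, known to hold luteal cells out of the cycle, was the 1 that rose, from 917 to 3554, 3.88-fold. The inhibitors of CDK4 and CDK6 fell, Cdkn2c from 380 to 163 and Cdkn2d from 731 to 286, and so did their target Cdk6, from 1120 to 338. Cdkn1a, the inhibitor p21, read 1036 and 802.

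Promoters of mitosis genes are known to carry CCAAT boxes, bound by NF-Y, and the CHR, bound by the DREAM and MuvB complexes, whose letters are TTTGAA. In the 300-base windows of the mitosis list, searched on both strands, CCAAT occurred in 83.3% (20 of 24 windows) and TTTGAA in 75% (18 of 24), against 37.3% and 12% of the windows of genes above the floor. Windows of the replication list held the E2F letters TTTNGCGC in 32.1% (9 of 28), against 2.23%. Windows of all genes that fell held them in 1.05%, and the 150 bases before the starts of Rrm2 and Cdc45 had no match. Of the 13 mitosis genes that fell, 10 had a window kept for this count, which left out Aurkb, Kif20a and Tpx2. The count does not tell whether the genes left out have a window. Of those 10, 9 had CCAAT within 150 bases before a start, and 5 had both letters there. The 4 sequences below are from those 5 and show the spacing between both elements. Capitals mark CCAAT or its reverse-strand form ATTGG, and TTTGAA or its reverse-strand form TTCAAA. They are the 150 bases before the start in GRCm38.p6: Cdk1 at chr10:69352913-69353062, minus strand, Ube2c at chr2:164769779-164769928, plus strand, Top2a at chr11:99024190-99024339, minus strand, and Kif11 at chr19:37376232-37376381, plus strand.
Cdk1: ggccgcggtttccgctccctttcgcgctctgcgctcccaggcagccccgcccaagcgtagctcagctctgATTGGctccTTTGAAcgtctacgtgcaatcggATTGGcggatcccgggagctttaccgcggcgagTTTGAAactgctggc
Ube2c: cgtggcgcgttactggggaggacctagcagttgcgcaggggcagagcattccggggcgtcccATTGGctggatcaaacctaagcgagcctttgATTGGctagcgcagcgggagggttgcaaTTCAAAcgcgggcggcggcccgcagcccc
Top2a: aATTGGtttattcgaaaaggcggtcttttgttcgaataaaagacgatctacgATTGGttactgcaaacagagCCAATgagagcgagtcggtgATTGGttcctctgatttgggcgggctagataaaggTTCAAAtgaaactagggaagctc
Kif11: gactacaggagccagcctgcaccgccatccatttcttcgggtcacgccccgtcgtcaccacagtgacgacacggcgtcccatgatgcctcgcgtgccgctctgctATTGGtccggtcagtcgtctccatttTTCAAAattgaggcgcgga
In these windows the CHR nearest the start begins 15 bases before it in Cdk1, 29 in Ube2c, 23 in Top2a and 19 in Kif11, and a CCAAT box begins 48, 57, 58 and 45 bases before it.

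The progesterone pathway was bright at both times. The later steps were read at 11097 and 19408 for Cyp11a1, at 12490 and 18695 for Hsd3b1, the enzyme that yields progesterone, and at 16492 and 19922 for Fdx1, the electron donor of Cyp11a1. None of these 3, which were chosen after their values were seen, passed 2-fold. Star, the carrier of cholesterol into mitochondria, went the other way, from 9231 to 1259, 7.33-fold lower. Tspo, an outer mitochondrial membrane protein that binds cholesterol, rose from 788 to 1662, and Nr5a2, the receptor LRH-1, from 2554 to 5131. Its relative Nr5a1, or SF-1, read 660 and 447. Of 12 genes of progesterone synthesis 2 rose and 1 fell, and the median was 0.05. The call for Nr5a2, at 2.01-fold, ended under quantile and housekeeping scaling.

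Enzymes that inactivate steroids changed in both directions. With Sult1e1, Hsd17b11, a 17β-hydroxysteroid dehydrogenase of lipid droplets, fell from 13524 to 2378, 5.69-fold. Akr1c18, the 20α-hydroxysteroid dehydrogenase that breaks down progesterone at the end of luteal life, fell from 361 to 145, 2.49-fold. Hsd11b2, which inactivates glucocorticoids, rose from 178 to 554 and Hsd17b2, which turns estradiol to estrone, from 18 to 61, at least 3.21-fold. In all, 3 of 9 fell and 2 rose.

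Luteal markers, a list chosen with earlier results of these data known, did not rise together. Of 24, 6 rose and 5 fell, and the median was 0.19. Those that rose were Bhmt, Oxtr, Ptgfr and Cdkn1b, already given, Abcb1b, a multidrug transporter, at 687 and 1797, and Hsd17b7, an enzyme of estradiol and cholesterol synthesis in luteal cells, at 1150 and 2766. Fabp4, a fatty acid binding protein, fell from 1316 to 96, 13.7-fold, and Rbp4, the retinol carrier, from 380 to 56, 6.79-fold. Socs2, an inhibitor of JAK-STAT signals induced by prolactin in many tissues, went from 10244 to 3334. Scarb1, the receptor that takes in cholesterol from high-density lipoprotein, read 5955 and 9528, below 2-fold. The calls for Abcb1b, Hsd17b7 and Snap91 ended with averaged probe sets.

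Cholesterol synthesis was lower or level. Of 18 genes 15 lay below 0, 4 fell, 1 rose and the median was -0.34. Msmo1 and Idi1, enzymes of the sterol and isoprenoid steps, read 7176 and 3452 and 2259 and 1088. Cyp51, the lanosterol demethylase, read 1779 and 831 and Lss, lanosterol synthase, 1032 and 438, and both lost the call with averaged probe sets. Hmgcs1, which starts the pathway, read 7622 and 6221.

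Genes of lipid uptake and storage exchanged members. Plin5 and Plin4, coats of lipid droplets, rose, Plin4 from 168 to 1025, 6.10-fold, while Plin2, the common droplet coat, read 916 and 569. Scap, the sterol sensor that escorts SREBP, rose from 2070 to 7658, 3.70-fold. The lipoprotein receptors Lrp8 and Vldlr fell from 1156 to 337 and from 1966 to 653, and Abca1, which exports cholesterol, from 4384 to 2040. Of 26 genes 4 rose and 6 fell. In fatty acid synthesis 3 of 20 rose and 0 fell, 15% against 11.7% of all genes. Mlxipl, the glucose-responsive factor ChREBP, read 100 and 471, 4.71-fold higher, and Agpat2, which makes phosphatidic acid, 352 and 1195. Acss2, an acetyl-CoA synthetase, read 199 and 399, a call that ended with averaged probe sets. Insig1, at 1812 and 906, stood at the 2-fold limit and lost its call under 2 of the scalings tried, median centring and quantile.

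Genes that mark the follicular granulosa cell tended upward at 24 h. Of 26, 6 rose and 2 fell, and the median was 0.42. Foxl2, the factor that maintains granulosa identity, rose from 1293 to 3037, 2.35-fold. Amh, anti-Müllerian hormone, rose from 179 to 486, 2.72-fold, and Inhbb, the inhibin beta B subunit, from 1692 to 4031, 2.38-fold. Slc18a2, a vesicular amine transporter, rose from 472 to 1593 and Ihh, Indian hedgehog, the signal from granulosa to theca cells, from 51 to 141. Ptch1 and Gli1, which hedgehog signals induce in theca cells, read 904 and 1130 and 38 and 25. Fshr, the receptor for follicle-stimulating hormone, read 441 and 264. Grem1, an antagonist of bone morphogenetic proteins, was 7.52-fold lower, at 203 and 27.

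Growth factor pathways gave few changes with a shared direction. In inhibin, activin and BMP signalling 4 of 32 rose and 4 fell: Bmp4 fell from 209 to 31, 6.74-fold, and Id2, an inhibitor of basic helix-loop-helix factors, rose from 1685 to 4739, 2.81-fold. In the WNT pathway 2 of 30 rose and 1 fell, 10% against 11.7% of all genes. Fzd1, a frizzled receptor, went from 3161 to 300, 10.5-fold lower. Fzd5 and Lgr5 rose, at 86 and 174 and at 27 and 66, but lost the call with averaged probe sets. Among 21 IGF and insulin genes 2 rose and 3 fell, and Igfbp2, which binds insulin-like growth factors, rose from 642 to 2769, 4.31-fold. Pappa, a protease that frees them, fell from 143 to 49, a call that averaging also ended. Igf1 stayed at 745 and 842.

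The C/EBP factors that the knockout targets were themselves lower at 24 h in wild type without passing 2-fold. Cebpb read 7436 at 8 h and 3976 at 24 h, and Cebpa 685 and 352. On the knockout arrays Cebpb was still read at 1127 at 8 h and at 85 at 24 h, and Cebpa at 19 and 38. Cebpd, a further member of the family, fell from 295 to 66 in wild type, 4.47-fold. Trib2, a pseudokinase that promotes degradation of C/EBPα, rose from 453 to 908, a call that did not hold with averaged probe sets. Among 25 transcription regulators read with the progesterone receptor 1 rose and 4 fell, and Runx1, a runt factor of the ovulatory response, fell from 1294 to 437 and Pparg, a nuclear receptor of lipid metabolism, from 964 to 296.

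The angiogenic list was read on arrays whose endothelium markers had a median of -0.88, and it changed both ways. Apln, apelin, a peptide of growing vessels, rose from 295 to 1491, 5.05-fold, and Vegfa, the main vascular growth factor, from 418 to 891, 2.13-fold. Vegfd and Vegfc, which act on lymphatic vessels, fell from 505 to 107 and from 100 to 22. Of 26 genes 2 rose and 4 fell, 23.1% against 11.7% of all genes, with a median of -0.45. The receptors Kdr, Flt1 and Tek, which are read from endothelium, were at 216 and 156, at 67 and 44, and at 81 and 44. The call for Vegfa ended with averaged probe sets.

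Cytokine genes included single large changes. Saa3, an acute phase apolipoprotein, rose from 96 to 757, 7.89-fold, Ccl2, the monocyte attractant, from 34 to 84, and Ackr3, a scavenger of the chemokine CXCL12, from 289 to 679. Cxcr4, the signalling receptor for that chemokine, fell from 2567 to 614, 4.18-fold, and Cxcl12 itself read 315 and 324. Of 25 genes 5 rose and 4 fell. Leukocyte markers were higher on the same array, with the sums given above.

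Actin and motility genes were mostly lower, as were the smooth muscle markers, with which this list shares Tagln, Acta2 and Cnn1. Of 30 genes 9 fell, 1 rose and 28 lay below 0, with a median of -0.51. Rnd3, a small GTPase that loosens stress fibres, fell from 2158 to 416, 5.19-fold, Vim, vimentin, from 7239 to 2912 and Actg2, the smooth muscle gamma actin, from 339 to 68. Ppp1r14a, an inhibitor of myosin phosphatase, rose from 382 to 1814, 4.75-fold. The cytoplasmic actins were level, Actb at 16982 and 16901 and Actg1 at 10318 and 10234. Acta2, at 3538 and 1532, changed direction when probe sets shared between genes were left out, but its other probe sets were under the floor.

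In glycolysis and hypoxia 6 of 27 genes rose and 4 fell, with a median of 0.39. Aldoc, an aldolase, rose from 112 to 633, 5.65-fold, and Pdk1, which keeps pyruvate out of mitochondria, from 83 to 380, 4.58-fold. Pfkfb4 and Egln3, both induced by hypoxia, fell from 894 to 155 and from 349 to 69. Ldha, lactate dehydrogenase, was below 2-fold at 3322 and 5709. Respiratory chain genes shifted by small steps: of 37, none passed 2-fold, 30 lay above 0 and the median was 0.16. In the citrate cycle and fuel list 2 of 27 rose and 0 fell, 7.41% against 11.7% of all genes. They were Suclg2, a subunit of succinyl-CoA ligase, at 465 and 1133, and Ppargc1b, a coactivator of mitochondrial genes, at 30 and 76. Averaging probe sets ended the calls for Pfkl, Pfkp and Ndrg1, and that for Bnip3, at 2.02-fold, ended under quantile and housekeeping scaling.

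The glutathione list held large changes both ways, with 7 of 30 genes lower and 3 higher. Gsta4 fell from 5480 to 711, 7.71-fold, and Gstm1 and Gstm2, transferases of the mu class, from 4519 to 1381 and from 4358 to 1197. Gclc and Gclm, the subunits of the enzyme that limits glutathione synthesis, fell from 2179 to 683 and from 1041 to 469, and Slc7a11, which imports cystine for it, from 305 to 25, 12.2-fold. Mgst2 rose as given above and Gsto1, of the omega class, from 786 to 1708. Around Bhmt, the betaine and methionine list was mostly a little higher: 15 of 18 genes lay above 0, with a median of 0.30. Beside Bhmt only Mthfd1, at 402 and 805, passed 2-fold, a call that ended with averaged probe sets. Those 2 were 11.1% of the list, against 11.7% of all genes. Bhmt2, the neighbouring paralog, was under the floor on both arrays, at 7 and 9. The calls for Gsta3, Gstm7 and Gclm also ended with averaged probe sets.

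Clock genes differed between the arrays, in 7 of 17 members. Dbp, Nr1d1 and Nr1d2, which are driven by the activating limb of the clock, rose from 181 to 507, from 41 to 98 and from 312 to 1315. Npas2, a partner of the activator, rose from 27 to 107. Nfil3, a repressor that opposes DBP, fell from 1376 to 244, 5.64-fold, Per1 from 847 to 254 and Cry1 from 343 to 103. Arntl, the activator BMAL1, read 229 and 278. The cells were taken 16 h apart by their labels and the clock time is not given, so time of day and time after hCG cannot be told apart.

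Several gene groups had no genes past 2-fold, or few, or a share near that of all genes. None of 25 genes of endoplasmic reticulum stress passed it, with a median of 0.00, and none of 76 mitochondrial ribosomal proteins, with a median of 0.11. The 39 proteasome subunits had a median of -0.22 and the 43 complex I subunits one of 0.33, again with none past 2-fold, and 1 of 46 cytosolic ribosomal proteins did, Rpl12, at 301 and 775. In apoptosis 1 of 19 genes rose and 1 fell, 10.5% against 11.7% of all genes. Apaf1, the scaffold that activates caspase 9, fell from 487 to 192. Bmf, a BH3-only protein, rose from 113 to 246, a call that ended with averaged probe sets. Of 13 housekeeping genes only Ywhaz changed, from 6755 to 3245, and their median was 0.11. Among genes with solute carrier symbols 27 of 257 rose and 11 fell, 14.8% against 11.7% of all genes.

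The knockout arrays of the same times give a separate reading of the interval, and they share no array with the wild-type comparison. Of the 733 genes that rose in wild type, 341 (46.5%) rose and 2 fell between the knockout arrays, with a knockout median of 0.94. Of the 848 that fell, 414 (48.8%) fell and 11 rose, with a knockout median of -0.97. Among the 11941 genes unchanged by the rule in wild type, 4.3% rose and 2.14% fell in the knockout. Nts and Sult1e1 fell in both genotypes, Nts going from 8118 to 38 and Sult1e1 from 6486 to 21 in the knockout. In all, 13 of the 15 largest rises and 15 of the 15 largest falls passed the rule in the same direction there.

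**Figure D5:**
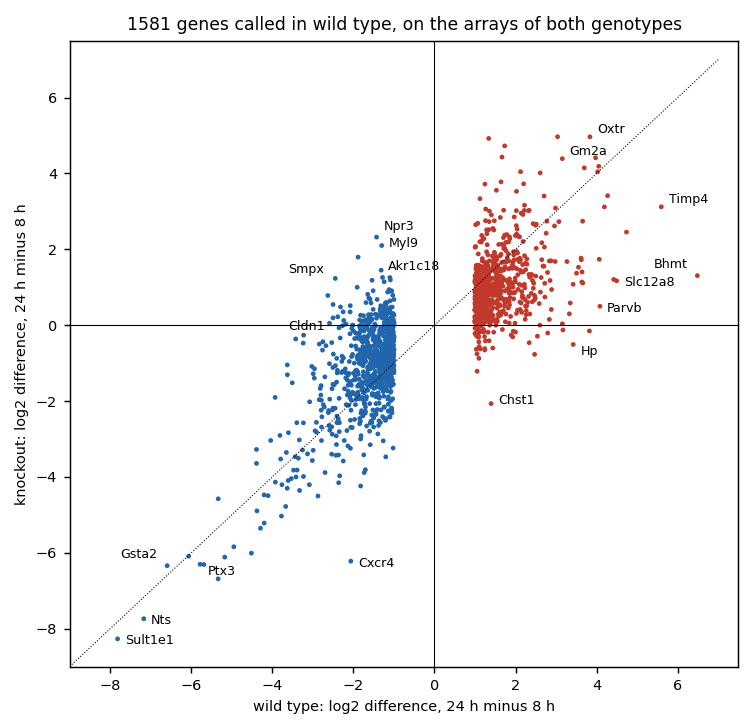
Log2 difference between 24 h and 8 h after hCG in wild type (x axis) and in the knockout (y axis) for the 1581 genes that passed the 2-fold rule in wild type; the dotted line marks equal values. Nts and Sult1e1 lie near the line, while Bhmt, Slc12a8 and Parvb lie below it and Npr3 and Myl9 lie on the other side of 0.

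Size of the change differed for some of the leading genes. Bhmt read 38 and 94 in the knockout, against 93 and 8343 in wild type, and Slc12a8 read 36 and 81 against 71 and 1600. Parvb, at 46 and 65, did not pass 2-fold in the knockout. Haptoglobin (Hp) went from 52 to 558 in wild type and from 37 to 26 in the knockout. Oxtr rose in both, from 30 to 938 in the knockout, and so did Gm2a, the activator of ganglioside breakdown, from 606 to 12710 against 1042 to 9280. Cxcr4 ended at 614 in wild type and at 30 in the knockout. Cholesterol synthesis had a median of -1.56 in the knockout against -0.34, while the mitosis lists were alike at -0.90 and -0.95. Hp, Gm2a and Cxcr4 were chosen after their values were seen, and with 1 array in each group no difference between genotypes was tested.

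The other cell markers differed between genotypes as well. Stroma and smooth muscle markers summed to 30368 and 19753 in wild type and to 6707 and 13398 in the knockout, at 8 h and 24 h, and endothelium markers to 3383 and 2008 against 1406 and 2216. Genes that fell in wild type and rose in the knockout included Myl9, a smooth muscle myosin light chain, at 784 and 318 against 129 and 553, and Ogn and Fmod, proteoglycans of connective tissue, Ogn at 1062 and 449 against 203 and 449. The part of those cells in these opposite differences was not tested. Akr1c18 read 361 and 145 in wild type and 41 and 112 in the knockout.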

How the data were processed

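RNA of granulosa cells was labelled with biotin and hybridised to mouse Affymetrix 3′ expression arrays of 45101 probe sets. The authors deposited 1 intensity for each probe set and array, as whole numbers on a linear scale; affy and RMA are named in the submitters' processing notes, with no version and no further step given in the sources used here. RMA shrinks low signals, so folds of dim genes are compressed, and rounding makes the values of dim genes coarse.

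Log2 was taken with Python 3.11.15, pandas 2.3.3 and numpy 2.4.6, with no further scaling. The 34958 probe sets with 1 symbol in the platform annotation were used (932 had several and 9211 had none listed), and the one with the highest mean of the 2 wild-type arrays stood for each gene. Of these, 34754 matched RefSeq by gene identifier. The floor was the 40th percentile of all values of both arrays. Array medians were 32 at 8 h and 31 at 24 h, and 16 hybridization control probe sets had a median difference of -0.14 with an SD of 0.09. Each group is 1 array, so that number limits the precision and no test was run. How often the size rule errs on these arrays was not tested. Named genes are the 15 largest folds each way, any changed member of 40 lists of processes, 8 marker lists and gene families, the member with the largest difference where none changed, Cebpa and Cebpb; others are given as context. The members and lists were chosen with earlier results of these data known. Promoter windows come from RefSeq (GRCm38.p6), of which 10863 of 13522 genes matched. Alternatives were other probe-set rules, scalings, floors and fold limits.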

Additional observations from a re-analysis of the deposited data

Results flagged for a closer look

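Some genes passed the 2-fold rule in opposite directions in wild type and in the knockout. None of these differences was tested, since each genotype and time has 1 array. They are given as the wild-type change minus the knockout change, on the log2 scale. It was 3.46 for Chst1, a sulfotransferase, and 2.27 for Pla1a, a phospholipase, both of which rose in wild type and fell in the knockout. Genes of the opposite pattern were Npr3 at -3.75, Fmod at -3.68, Smpx at -3.68, Myl9 at -3.40, Tmem204 at -2.91, Akr1c18 at -2.77, Loxl3 at -2.72, Mfap5 at -2.54, Ogn at -2.39, Tril at -2.36 and Ramp2 at -2.28. Npr3 read 35 and 13 in wild type, at least 1.84-fold lower against the floor, and its call ended with averaged probe sets, so its size here rests on a value under the floor. Fmod at 17 and 59 and Tmem204 at 18 and 36 started under the floor in the knockout. The median of the stroma and smooth muscle markers, which include Fmod and Ogn, was -0.95 between the wild-type arrays and 0.63 between those of the knockout, a difference of -1.58.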

How the results depend on the processing

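No paired analysis was possible because each group has 1 array. The counts of 733 genes that rose and 848 that fell depended most on the fold limit: 1827 and 1863 at 1.5-fold, 247 and 346 at 3-fold. Averaging the probe sets of a gene gave 583 and 647, and 58 of the 260 genes named by the rule lost their call under it. The average takes in probe sets under the floor. Median centring gave 793 and 778, quantile scaling 771 and 789, housekeeping scaling 697 and 859, a floor at the 50th percentile 714 and 827, and no floor 742 and 855. Of 480 list medians under these alternatives, 475 moved by less than 0.35, the SD between probe sets of a gene; 4 lists changed sign under some alternative, all with a median within 0.052 of 0. The exceptions were the neuropeptide list, with a median of -0.61 with averaged probe sets, -0.52 with a floor at the 30th percentile, -0.34 with no floor and 0.0 with values raised to the floor, and the theca list, at -1.01 with averaged probe sets; fewer or more dim genes enter under the other floors. Acta2 reversed to 0.15 without probe sets shared between genes, a value read from probe sets under the floor. Low signal limits genes near the floor: 148 changed genes had a value under it.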

Other observations

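Regulators of G protein signals, the RGS proteins, exchanged members between the arrays. Of 15 above the floor 4 rose and 4 fell, 53.3% against 11.7% of all genes. Rgs2 fell as given in the report and Rgs5, a marker of vessel wall cells, fell from 453 to 107. Rgs10 rose from 228 to 776, Rgs11 from 98 to 382 and Rgs3 from 149 to 500. Among 22 chemokine ligands 6 rose and 2 fell, 36.4% against 11.7% of all genes, with a median of 0.53. Ccl17, an attractant of T cells, rose from 51 to 306, while Cxcl14 fell from 467 to 152. Of 11 ADAMTS proteases 3 fell and 0 rose, and Adamts3, which processes procollagen and lymphatic growth factor, went from 250 to 18, at least 13.2-fold lower.

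Transport genes gave further single changes. Slc12a7, a potassium-chloride cotransporter, rose from 290 to 1635 and Slc11a1, a metal transporter known from macrophages, from 56 to 499. Slc25a33, a mitochondrial pyrimidine carrier, fell from 1738 to 331. In the list of 21 amino acid transporters 2 rose and 2 fell: Slc38a3, which carries glutamine, rose from 230 to 665, and Slc7a8, a carrier of neutral amino acids, fell from 4243 to 1199. Of 24 junction and keratin genes 3 rose and 3 fell. Cldn1, a claudin of tight junctions, went from 333 to 31, 10.7-fold lower, and F11r, a junctional adhesion molecule, from 844 to 2635, a call that averaging probe sets ended. In 15 genes of retinoid metabolism Stra6, the receptor for retinol carrier protein, rose from 35 to 107 and its ligand Rbp4 fell, as given in the report. Those 2 were 13.3% of the list, against 11.7% of all genes.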
